A study of Mus musculus with 34 samples.

Results

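Spi1, Cebpa, Cebpb, Batf3, Id2, Klf4, Zeb2, Runx1 and Bcl6, 9 of 21938 protein-coding genes, were followed by name as transcription factors of the myeloid and dendritic cell lineage. For each gene, the ChIP-seq peaks at its promoter, within 2.5 kb of the transcription start site (TSS) on either side, and within 100 kb of the TSS were compared. The cells were bone marrow-derived dendritic cells (BMDCs) from 8 week old C57BL/6 mice, grown for 6 days with GM-CSF, and selected for CD11c per the study's methods. WT cells carried Rosa26-driven CreER, a Cre recombinase switched on by tamoxifen, and KO cells carried CreER together with floxed Ctcf alleles (CreER;CTCF fl/fl). The protocol added 4-OH tamoxifen on the first culture day for the deletion. WTLPS and KOLPS cells were in addition stimulated for 3 h with 100 ng/ml LPS, a bacterial product sensed by TLR4. Peaks of p65 (a subunit of NF-κB), SMC1 (a subunit of cohesin), CTCF, H3K27ac, H3K27me3, H3K4me1 and H3K4me3 were listed in WT, WTLPS, KO and KOLPS, while STAT5 was profiled in WT and KO after 15 min of renewed GM-CSF. There was 1 list for each antibody and condition, 30 in all, so a difference between conditions has no replicate check and no test. Shares are given with 95% Wilson intervals in parentheses, which cover counting error only.

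CTCF binds insulator sites and stops cohesin, a ring-shaped complex that extrudes DNA loops, so that CTCF and SMC1 often occupy the same positions. H3K4me3 marks active promoters, H3K27ac active promoters and enhancers, H3K4me1 enhancers, and H3K27me3 genes silenced by Polycomb. STAT5 carries the GM-CSF signal to the genome and NF-κB p65 the signal of TLR4. PU.1, the product of Spi1, and the C/EBP proteins set up the enhancers of myeloid cells.

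Peak lists held 504 to 96475 peaks. CTCF itself had 60537 peaks in WT and 54020 in WTLPS, against 20151 in KO and 11576 in KOLPS, so the KO lists still held CTCF sites. Library coverage, recovered from the lists as fragments covering a background base, was 0.71 to 5.76 and differed by at most 1.6 times between conditions of an antibody. It was not recovered for the broad peaks of H3K27me3 and H3K4me1. Below, the enrichment of a peak is its fold over the local background, and a percentile is its rank within its own list. Positions are distances from the start site along the gene, negative upstream. An H3K4me3 promoter peak was listed for 10 of 10 dendritic cell markers in all 4 conditions, for 10, 10, 9 and 9 of 10 macrophage and monocyte markers in WT, WTLPS, KO and KOLPS, and for 2, 2, 1 and 1 of 8 neutrophil markers. T cell and B cell markers had such a peak at 2 of 8 genes each, erythroid and mast cell markers at 4 of 8, and markers from outside blood at 3, 3, 4 and 4 of 10. H3K27ac was listed at 9 of 10 dendritic cell markers in all 4 conditions, Flt3 excepted. It was at 7, 7, 8 and 7 macrophage and monocyte markers, at 1, 1, 3 and 2 neutrophil markers, and at 0 or 1 gene of each other set. Some markers with H3K4me3 also had H3K27me3 in all 4 conditions, among them Flt3, Zbtb46, Epor, Kit, Tal1, Pax5 and Ebf1. These are bulk samples, in which a loss of occupancy per cell and a lower share of cells that have it cannot be told apart.

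The promoters of the lineage factors kept their active histone marks in KO cells, as did most promoters with H3K4me3 or H3K27ac. H3K4me3, H3K27ac and H3K4me1 peaks lay at 8 of 9 start sites in all 4 conditions, at every gene but Bcl6. Over all protein-coding genes, 54.5% had H3K4me3 in all 4 conditions. In single lists, H3K27ac lay at 40.8 to 44.5% of all promoters and H3K4me1 at 46.5 to 57.3%. None of these 8 genes lost its H3K4me3 promoter peak from WT to KO, where 1.88% of all genes with one in WT did. None lost its H3K27ac promoter peak either, against 6.83% of genes from WT to KO and 10.3% from WTLPS to KOLPS.

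The exception, Bcl6 (chr16:23965052-23988852, minus strand), encodes a transcriptional repressor that is needed for germinal centre cells and also acts in myeloid cells. Its longest transcript is a retained intron that starts at position 23972380, inside the gene, and no list had a peak there. The start of its longest protein-coding transcript lies 16472 bp upstream, at 23988852. At that 5′ start, H3K4me3, H3K27ac, H3K4me1, SMC1 and CTCF peaks were listed in all 4 conditions and STAT5 peaks in WT and KO. H3K4me3 there was 39.4-fold in WT, 34.8-fold in WTLPS, 32.7-fold in KO and 24.0-fold in KOLPS. CTCF was 22.4-fold in WT, 18.5-fold in WTLPS, 8.61-fold in KO and 6.28-fold in KOLPS, and SMC1 15.6-fold, 12.0-fold, 4.89-fold and 4.37-fold in the same order. The CTCF summit lay at -2466 bp in WT and -2332 bp in KO. The strongest SMC1 summit moved from -2471 bp in WT to 453 bp in KO, so these SMC1 values are of different peaks. Within 100 kb Bcl6 also had 21 H3K27me3 peaks in WT and 24 in WTLPS, then 15 in KO and 13 in KOLPS, out of 43, 42, 48 and 15 around all 9 genes. The length under them did not follow the count, with 37.4 kb in WT, 22.1 kb in WTLPS, 42.6 kb in KO and 8.8 kb in KOLPS. The whole H3K27me3 lists were also shorter with LPS. They covered 117.0 Mb in WT, 56.7 Mb in WTLPS, 112.8 Mb in KO and 18.7 Mb in KOLPS.

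H3K4me3 at the remaining 8 promoters was wide and stood above the median of each list. The median enrichment over them was 40.6-fold in WT, 36.4-fold in WTLPS, 34.5-fold in KO and 21.9-fold in KOLPS. Over all peaks of the lists, at promoters or not, it was 9.51-fold, 10.7-fold, 8.18-fold and 10.3-fold. The percentiles of the 8 ran from 68.7 to 99.8 in WT and from 62.6 to 99.7 in WTLPS. They ran from 77.8 to 99.9 in KO and from 66.3 to 99.2 in KOLPS. In KOLPS the enrichment was lower than in KO at all 8 genes. The peaks spanned between 4134 and 12833 bp in WT, 3073 and 13733 bp in WTLPS, 3858 and 12607 bp in KO, and 3176 and 9387 bp in KOLPS. At Id2 (chr12:25093799-25097140, minus strand), which encodes an inhibitor of E proteins required for several dendritic cell subsets, the enrichment over background was 54.7-fold in WT, 51.5-fold in WTLPS, 55.0-fold in KO and 33.9-fold in KOLPS, above the 99th percentile of each list. At Zeb2 (chr2:44983632-45117395, minus strand), which encodes a zinc finger repressor that acts in myeloid differentiation, the peak at the start site shortened from 12833 bp in WT, 13733 bp in WTLPS and 12607 bp in KO to 3176 bp in KOLPS. A second KOLPS peak, of 29.2-fold, lay near the 25 start sites that begin 3887 bp further into the gene. Batf3 (chr1:191097847-191108945, plus strand), encoding a factor of cross-presenting dendritic cells, had the lowest H3K4me3 enrichment of these genes in WT at 24.2-fold, followed in the other conditions by 20.4-fold in WTLPS, 26.4-fold in KO and 17.4-fold in KOLPS.

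H3K27me3 was nearly absent from these promoters. It was listed at 0 of 9 start sites in WT, WTLPS and KOLPS and at 1 in KO, Runx1, with an enrichment of 3.29-fold. Over all protein-coding genes it was listed at 27.1% in WT and 20.8% in WTLPS, then 27.6% in KO and 11.8% in KOLPS.

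**Figure D1:**
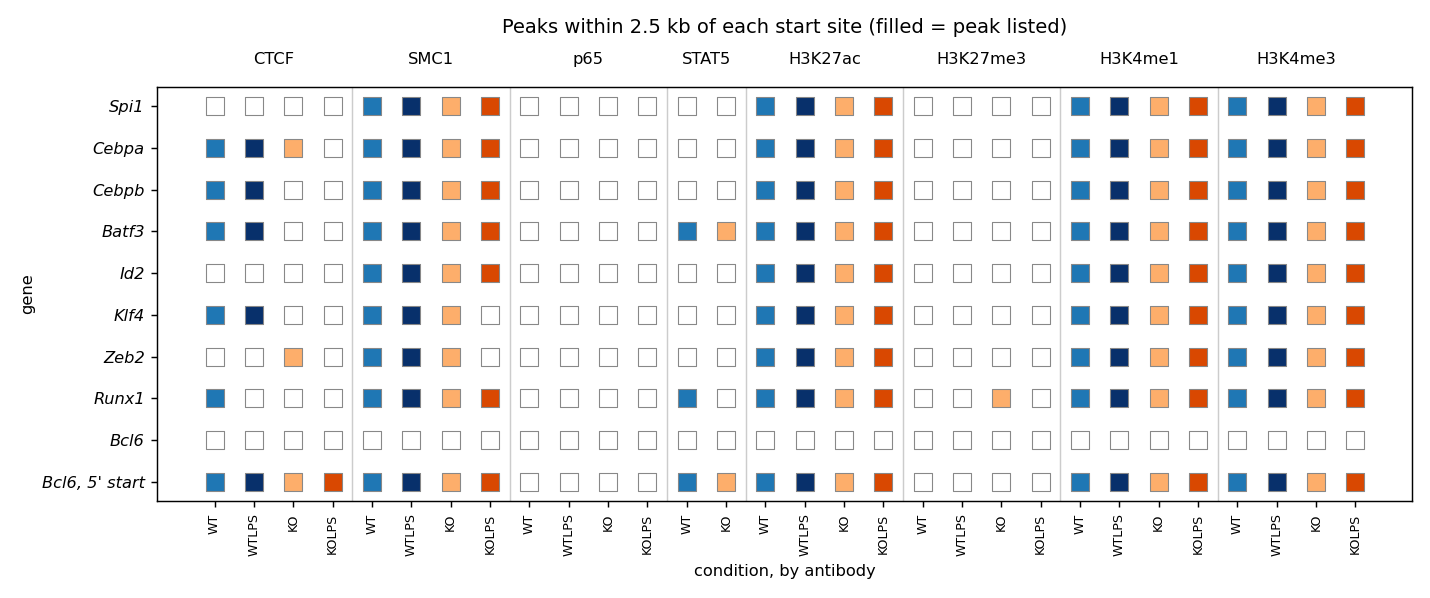
Peaks within 2.5 kb of each start site. Rows are the 9 genes and, below them, the 5′ start of Bcl6, columns are the 30 lists grouped by antibody, and a filled square is a listed peak. Filled squares cover 8 of 9 genes in the H3K4me3, H3K27ac and H3K4me1 columns and none in the p65 columns.

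CTCF peaks at the promoters were fewer in KO and absent in KOLPS, and they were also less frequent there over all protein-coding genes. A CTCF promoter peak was listed at 5 genes in WT (Cebpa, Cebpb, Batf3, Klf4 and Runx1), at 4 in WTLPS, at 2 in KO and at 0 in KOLPS. Among all protein-coding genes, the WT list placed one at 29.5% and the WTLPS list at 27.2%. The KO list did so at 19.1% and the KOLPS list at 10.1%. Counts over 9 genes are too few to set these promoters apart from that background. Of the 5 genes with one in WT, 4 had none in KO, where 55.9% of all such genes lost theirs. Of the 4 genes with one in WTLPS, all 4 had none in KOLPS, against 71.1% of all such genes.

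At Cebpa (chr7:35119293-35121928, plus strand), which encodes the factor that directs granulocyte and macrophage progenitors, the CTCF peak at the start site had an enrichment of 12.2-fold in WT, 7.28-fold in WTLPS and 4.05-fold in KO, and none was listed in KOLPS. At Klf4 (chr4:55527143-55532466, minus strand), a zinc finger factor of monocytes, it was 15.4-fold in WT and 11.5-fold in WTLPS, and absent in KO and KOLPS. Cebpb (chr2:167688915-167690418, plus strand), whose product acts in inflammatory gene expression, had 6.12-fold in WT and 5.74-fold in WTLPS and no peak in either KO list. At both genes the peak was in the WT lists and in no KO list. Zeb2 had, at the start site used here, a promoter CTCF peak of 4.56-fold in KO, of 17 fragments at its summit, and none in the other 3 lists. At the 25 Zeb2 start sites that begin 3887 bp into the gene, CTCF was 6.12-fold in WT and 5.29-fold in WTLPS and in neither KO list, the direction of the other genes. Both KO promoter peaks were weak, at the 4.7th percentile of the list for Cebpa and the 24.2nd for Zeb2.

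SMC1 was still listed at these promoters in KO. All 8 genes with an SMC1 promoter peak in WT had one in KO, where 44.9% of all such genes lost theirs. From WTLPS to KOLPS, 2 of 8 lost it, Klf4 and Zeb2, against 60.2% of all such genes. At Runx1 (chr16:92601466-92826149, minus strand), which encodes a core factor of blood cell formation, SMC1 at the start site was 14.2-fold in WT, 9.02-fold in WTLPS, 9.62-fold in KO and 8.92-fold in KOLPS. At Cebpa it was 17.3-fold in WT, 12.3-fold in WTLPS, 5.68-fold in KO and 4.91-fold in KOLPS. A listed promoter peak was not always the same peak. At Cebpb the strongest lay at -243 bp in WT and at 1305 bp in KO, and at Batf3 at -2644 bp and -261 bp. At Klf4 it lay 2093 bp downstream of the start site in WT, with CTCF, and at -582 bp in KO.

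Within 100 kb, the 9 genes had 86 CTCF peaks in WT and 75 in WTLPS, then 27 in KO and 14 in KOLPS. Fewer were listed in KO than in WT at 8 of 9 genes, against 84.9% of all protein-coding genes and 94.5% of those with a CTCF peak in WT. Fewer were listed in KOLPS than in WTLPS at 9 of 9, against 87.4% of all and 98% of those with one in WTLPS. The share of WT peaks overlapped by a KO peak was 24.4% (16.6 to 34.5%) around these genes and 23.7% over the whole list. For WTLPS peaks and KOLPS it was 17.3% (10.4 to 27.4%) and 17.5%. These shares lay within counting error of the whole lists. They rest on list length, and CTCF coverage was 3.74 in WT and 2.95 in KO. In lists cut to the same number of peaks, 84.6% of 13 WT peaks were kept, beside 69.7% of the whole list.

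The genes differed in how much CTCF surrounded them. In WT the counts ran from 1 at Zeb2 and 3 at Runx1 to 16 at Spi1 and 17 at Batf3. At Spi1 (chr2:91082390-91115756, plus strand), encoding PU.1, 16 peaks in WT and 17 in WTLPS compared with 3 in KO and 1 in KOLPS. At Bcl6, 10 in WT and 7 in WTLPS compared with 8 in KO and 5 in KOLPS, the smallest proportional loss of the genes with more than 1 peak in WT. Count and position differed there: of the 10 WT peaks around Bcl6, 4 were overlapped by a KO peak. Peaks kept in KO ranked higher in the WT list, at a median percentile of 83.9, than those not kept, at 45.6.

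Capitals in the following reference sequences (GRCm38, plus strand) mark the core CTCF motif, CCA and AG 2 bases apart and AG and GGC 2 bases apart, read on either strand. They are shown because they lie at the strongest WT CTCF peak around each gene, where occupancy can be compared with the sequence. The motif lay within 50 bp of the summit at 4 of those 9 peaks, at 20 of the 86 WT peaks around the genes (23.3%, 15.6 to 33.2%), and at 27.1% of all WT CTCF summits, against 1.12% of windows 1 kb away.
Batf3 CTCF, chr1:191085136-191085165: SEQ_Batf3_CTCF
Id2 CTCF, chr12:25092342-25092442: SEQ_Id2_CTCF
Runx1 CTCF, chr16:92800079-92800179: SEQ_Runx1_CTCF
Bcl6 CTCF, chr16:23953876-23953976: SEQ_Bcl6_CTCF

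The Bcl6 sequence lies 18.5 kb downstream of the internal start site, outside genes, and its CTCF peak of 29.6-fold in WT was listed in all 4 conditions, at 11.1-fold in KO and 10.5-fold in KOLPS. The Id2 sequence lies 4.7 kb downstream of the start site and past the end of the gene, with 22.8-fold in WT, 7.09-fold in KO and 4.45-fold in KOLPS. The Runx1 sequence lies in an intron, 26.0 kb downstream of the start site, and its weaker peak of 6.14-fold in WT was in neither KO list. The Batf3 sequence lies in an exon of the neighbouring gene Nsl1, at -12.7 kb from Batf3, with 16.9-fold in WT and 6.33-fold in KO and no peak in KOLPS. The strongest WT peak was still listed in KO at 6 of the 9 genes, which left Klf4, Zeb2 and Runx1.

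SMC1 peaks around these genes were kept more often than in the whole list. There were 191 SMC1 peaks within 100 kb in WT and 175 in WTLPS, then 127 in KO and 73 in KOLPS, with fewer in KO and in KOLPS than in the matched WT list at 9 of 9 genes, as at 83.6% and 85.1% of all protein-coding genes and at 95.8% and 98.3% of those with an SMC1 peak to lose. Of the WT peaks around the genes, 55.5% (48.4 to 62.4%) met a KO peak, beside 34.5% of the whole list. Of the WTLPS peaks, 37.1% (30.3 to 44.5%) met a KOLPS peak, beside 23.3%. Both shares lay above the whole-list values by more than counting error. In lists cut to equal length, 57.4% of the SMC1 peaks around the genes were kept without LPS and 63.8% with LPS (31 of 54 and 37 of 58). The whole SMC1 lists cut alike kept 30.8% and 33.5%. Of CTCF peaks around the genes, 84.6% and 73.3% were kept (11 of 13 and 11 of 15), beside 69.7% and 63.6% of the whole lists. No order between SMC1 and CTCF can thus be read from the full lists. By gene, KO peaks overlapped 12 of 17 WT peaks at Bcl6, 25 of 36 at Batf3, 12 of 18 at Id2, 8 of 24 at Spi1 and 4 of 12 at Klf4.

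Retention was higher for SMC1 peaks that had no CTCF, most of which had H3K27ac. Of the 191 WT SMC1 peaks, 70 overlapped a WT CTCF peak and 24 of these were kept in KO (34.3%, 24.2 to 46.0%). Of the 121 without CTCF, 82 were kept (67.8%, 59.0 to 75.4%). A WT H3K27ac peak overlapped 106 of those 121 and 29 of the 70. The same split held in the whole list, where 16.3% of SMC1 peaks with CTCF and 55.7% of those without were kept, but 53.9% of the whole list overlapped CTCF and 36.6% of the peaks around these genes did. With LPS, 15 of 68 with CTCF (22.1%, 13.8 to 33.3%) and 50 of 107 without (46.7%, 37.5 to 56.1%) were kept. SMC1 library coverage was 5.4 in WT and 5.76 in WTLPS, then 5.34 in KO and 4.49 in KOLPS, and its part in the KOLPS counts was not tested.

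**Figure D2:**
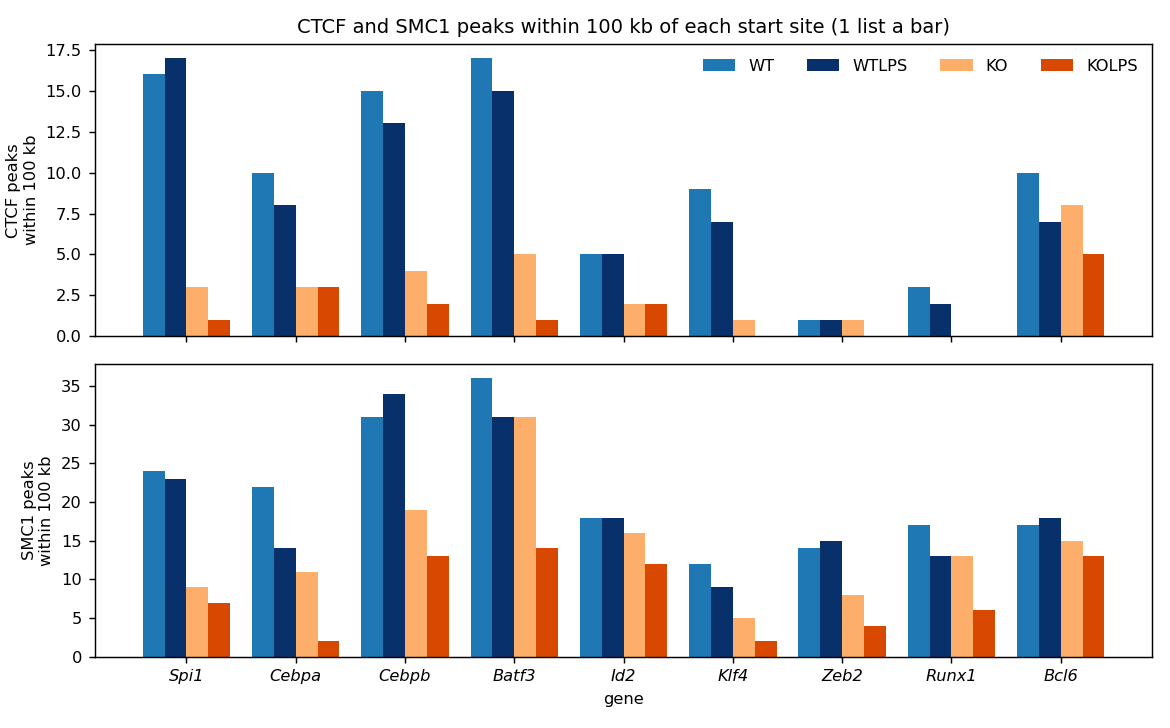
Number of CTCF peaks (top) and SMC1 peaks (bottom) within 100 kb of the start site of each gene, 1 bar for each condition. CTCF falls from 16 to 3 at Spi1 between WT and KO and from 10 to 8 at Bcl6, and SMC1 from 36 to 31 at Batf3 and from 24 to 9 at Spi1.

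In WTLPS, p65 peaks lay at distal sites around all 9 genes, and in KOLPS around 6 of them. No p65 peak lay within 2.5 kb of the 9 start sites used here in any condition, including the 5′ start of Bcl6. A WTLPS peak of 5.39-fold lay 1467 bp from the first of the 25 further start sites of Zeb2. Over all protein-coding genes, a p65 promoter peak was listed at 2.86% in WTLPS and 1.86% in KOLPS. Of genes without one in WT, 2.43% gained one in WTLPS. Among 38 other transcription factors of the lineage, 6 had a p65 promoter peak in WTLPS, 3 in KOLPS, 1 in KO and 0 in WT. The highest of those calls that differed between genotypes were Zeb1, a relative of Zeb2, with 7.01-fold in WTLPS and none in KOLPS, and Rbpj, the effector of Notch signalling, with 7.62-fold in KO and none in WT.

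Within 100 kb, p65 peaks numbered 5 in WT and 24 in WTLPS, then 3 in KO and 14 in KOLPS. More were listed in WTLPS than in WT at 9 of 9 genes, against 30.1% of all protein-coding genes, and at 8 of the 8 with H3K4me3 in all conditions, against 37.4% of such genes. The same held at 27 of the 38 other lineage factors, so it was not particular to these 9. The median number of WTLPS peaks was 2 in both sets. More were listed in KOLPS than in KO at 6 of 9, against 14.9% of all genes and 22 of the 38 other factors. Fewer were listed in KOLPS than in WTLPS at 5 of 9. The 5 were Cebpa, Batf3, Id2, Zeb2 and Bcl6. Fewer were listed in KOLPS at 26.1% of all genes, most of which had no WTLPS peak to lose. Of the genes with one, 78.8% had fewer, and of the other lineage factors with one, 21 of 29. Counts over 9 genes are too few to set 5 of 9 apart from these shares. The WTLPS list held 5465 p65 peaks and the KOLPS list 1752, at a coverage of 0.86 and 0.82. The weakest p65 peak listed had a −log10 p of 4.35 in WTLPS and 5.39 in KOLPS, so the cutoffs were not equal. With a stricter threshold, a −log10 p of at least 10 in both lists, 14 peaks were left in WTLPS and 14 in KOLPS. The counts around these genes were thus equal at that threshold, while the sites differed: a KOLPS peak overlapped 8 of those 14 WTLPS peaks (57.1%, 32.6 to 78.6%). The part of the unequal cutoffs in the lower KOLPS count was not tested.

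Of the 24 WTLPS peaks, a KOLPS peak overlapped 11 (45.8%, 27.9 to 64.9%), beside 22.7% of the whole list, and a WT peak overlapped 5 (20.8%, 9.24 to 40.5%), beside 13.3%. Those kept in KOLPS had a median percentile of 83.9 in the WTLPS list and the 13 not kept 38.9. The summits lay 10 upstream and 14 downstream of the start sites, the nearest 5.4 kb away, and 6 of the 24 peaks lay nearer to the start site of another protein-coding gene. H3K27ac covered 23 of the 24 sites in WT, before LPS (95.8%, 79.8 to 99.3%, beside 64.6% of the whole p65 list), and SMC1 21 of them (87.5%, 69.0 to 95.7%, beside 72.4%). A CTCF peak in WTLPS overlapped 1.

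Cebpb held the most, with 3 p65 peaks in WT and 6 in WTLPS, then 2 in KO and 6 in KOLPS. The peak 65.2 kb downstream of its start site, outside genes, was listed in all 4 conditions, at 22.8-fold in WT, 19.9-fold in WTLPS, 15.8-fold in KO and 16.5-fold in KOLPS, and a STAT5 peak overlapped it in WT and KO. The peak near 88.6 kb, at the promoter of the noncoding gene Gm14321, was also in all 4, at 5.84-fold in WT, 12.4-fold in WTLPS, 6.45-fold in KO and 24.8-fold in KOLPS. It was thus highest in KOLPS, at the 98.6th percentile of that list. The KOLPS list had 3 peaks around Cebpb that were not in WTLPS, at -39.5 kb, -32.0 kb and 86.6 kb.

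Zeb2 had 1 p65 peak in WT and 5 in WTLPS, then 1 in KO and 3 in KOLPS. The site in its intron 27.7 kb downstream of the start was in all 4 lists, at 6.42-fold in WT, 21.6-fold in WTLPS, 11.1-fold in KO and 10.5-fold in KOLPS, so that it was higher with LPS in WT and not in KO. The neighbouring peak at 31.6 kb was listed after LPS alone, at 12.9-fold in WTLPS and 6.6-fold in KOLPS. The peaks 5.4 kb downstream and at -8.9 kb were in WTLPS only.

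At Batf3, p65 peaks numbered 1 in WT and 4 in WTLPS, then 0 in KO and 2 in KOLPS. The strongest was 18.9-fold in WTLPS with its summit 100.3 kb downstream, beside Atf3, and it overlapped a KOLPS peak that lay past the window. At Klf4, a single site at -91.1 kb was 17.2-fold in WTLPS and 8.81-fold in KOLPS, and at Runx1 a single site at -41.3 kb was 5.93-fold in WTLPS and 12.7-fold in KOLPS. Both were absent without LPS. Id2 had 2 peaks and Bcl6 had 3 in WTLPS and neither gene had any in WT, KO or KOLPS. The strongest of these were 10.8-fold at Id2, at -58.5 kb, and 11.9-fold at Bcl6, at -27.4 kb from its internal start site. Cebpa had 1 peak of 5.39-fold in WTLPS, 32.6 kb downstream, and none in the other lists.

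The κB motif, GGG and TTCC 3 bases apart on either strand, lay within 50 bp of the summit at 1 of the 9 strongest WTLPS p65 peaks, the one at Spi1. It lay at 2 of the 24 WTLPS summits around the genes (8.33%, 2.32 to 25.9%), and at 0 of 14 in KOLPS, beside 11.2% of all WTLPS and 11.4% of all KOLPS p65 summits. In WT it was 2 of 5, beside 28.7% of all. The Spi1 window (GRCm38, plus strand) is shown because it is from the one WTLPS p65 peak around Spi1, and its motif is in capitals. The other WTLPS p65 peak with a motif, 8.62-fold at -22.5 kb from Batf3, was stronger but not the strongest of its gene.
Spi1 p65, chr2:91086460-91086560: SEQ_Spi1_p65

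It lies at -9.6 kb from the Spi1 start site used here, in an intron of a longer transcript. Its p65 peak was 4.85-fold in WTLPS, of 8 fragments, and was not listed in WT, KO or KOLPS. In KOLPS the only p65 peak around Spi1 was at another place, at -25.6 kb, at the promoter of Slc39a13, with 8.81-fold.

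**Figure D3:**
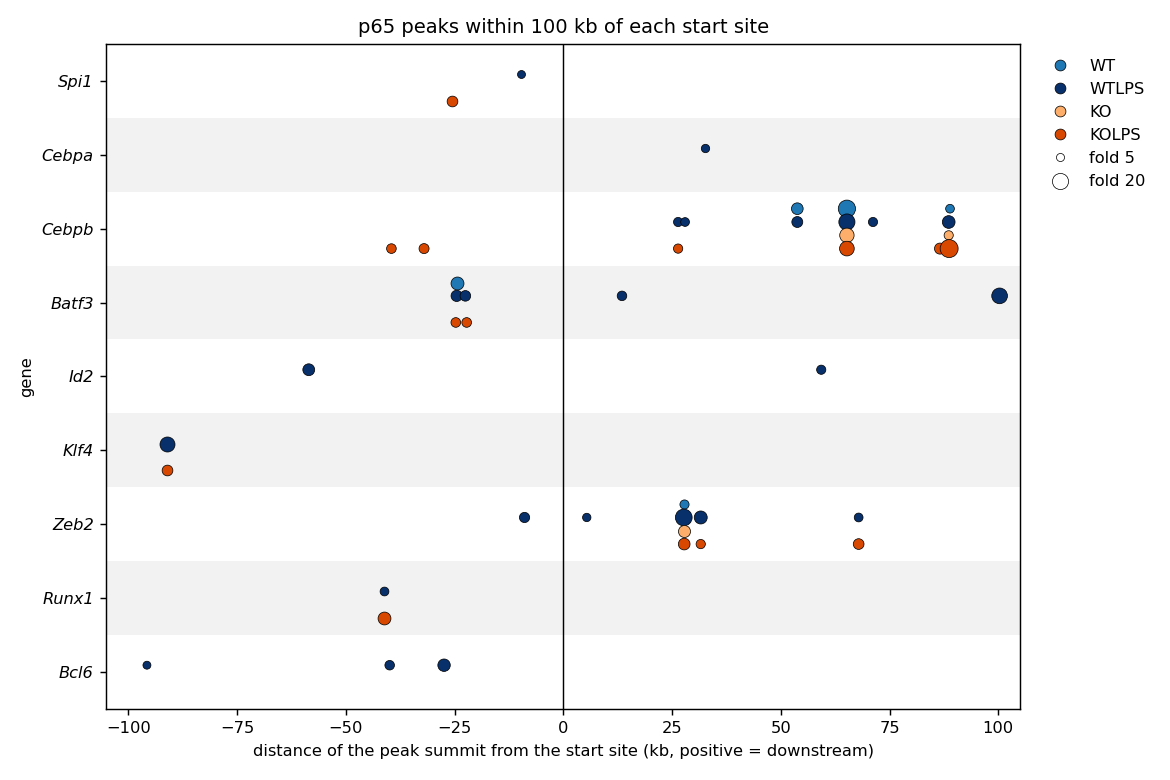
Position of each p65 peak summit relative to the start site of each gene (kb, positive downstream), by condition, with the area of a point proportional to fold enrichment. No point lies within 2.5 kb of the start site used, and Cebpb and Zeb2 have sites with points in all 4 conditions.

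STAT5 was placed at 2 of the 9 start sites in WT, Batf3 and Runx1, and at 1 in KO, Batf3. Over all protein-coding genes it was placed at 3.96% in WT and 3.29% in KO. Of the 2 genes with a STAT5 promoter peak in WT, 1 lost it, beside 32.6% of all such genes. Batf3 had 2 STAT5 promoter peaks in WT. The one at -2392 bp had 7.73-fold in WT and 7.77-fold in KO, and the one at -350 bp, with 6.32-fold and 14 fragments in WT, was not listed in KO. The Runx1 peak at 101 bp was 6.01-fold in WT, of 13 fragments, and was not listed in KO, whose STAT5 library had the higher coverage (1.7 against 1.33). At the 5′ start of Bcl6, a STAT5 peak of 52.0-fold in WT and 53.2-fold in KO stood at the 99.4th and 99.6th percentiles of the lists, the highest STAT5 peak around any of these genes in either list. The annotation also places this peak at the promoter of the gene model Gm37419.

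Among the 38 other factors, 9 had a STAT5 promoter peak in WT and 5 in KO, and 4 of the 9 lost it. The strongest lost were at Klf6, a relative of Klf4, with 8.59-fold, and Nr4a3, an orphan nuclear receptor, with 8.16-fold in WT.

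Within 100 kb there were 39 STAT5 peaks in WT and 27 in KO, with fewer in KO at 6 of 9 genes (Spi1, Batf3, Id2, Zeb2, Runx1 and Bcl6), against 22.7% of all protein-coding genes. Of genes with a STAT5 peak in WT, 48.7% had fewer in KO, and of these 9 genes 6 of the 8 with one. A KO peak overlapped 24 of the 39 (61.5%, 45.9 to 75.1%), within counting error of the 64.8% of the whole list. The 24 kept had a median percentile of 60.5 in the WT list and the 15 not kept 26.6. Every WT peak above 10.3-fold was overlapped in KO. H3K27ac in WT covered 34 of the 39 (87.2%, 73.3 to 94.4%, beside 57.4% of the whole list).

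The strong STAT5 sites were in both lists. Around Bcl6, besides the 5′ start, the peak at -39.8 kb from the internal start was 31.8-fold in WT and 29.2-fold in KO, and the one near -55.3 kb was 22.3-fold in WT and 12.9-fold in KO. At Batf3, the peak 26.3 kb downstream was 41.7-fold in WT and 30.3-fold in KO. At Cebpb, 6 of 6 WT peaks were kept, the strongest 26.3 kb downstream at 21.5-fold in WT and 17.4-fold in KO. The Runx1 intron peak 39.1 kb downstream was 16.8-fold in WT and 12.9-fold in KO, and the Id2 peak at -92.2 kb was 20.6-fold in WT and 12.2-fold in KO. Runx1 kept 2 of 6 and Batf3 5 of 9. Klf4 had no STAT5 peak in WT and 1 in KO, 43.1 kb downstream at 5.18-fold.

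The STAT5 motif, TTC and GAA 3 bases apart, lay within 50 bp of the summit at 4 of the 8 strongest WT peaks, at 18 of the 39 WT peaks around the genes (46.2%, 31.6 to 61.4%), and at 37.9% of all WT summits, against 3.35% of windows 1 kb away. In KO it was 12 of 27 (44.4%, 27.6 to 62.7%) and 37.9% of all. The sequences of those 4 (GRCm38, plus strand, motif in capitals) are shown because they hold the motif. All 8 strongest WT peaks were kept in KO, those without the motif included.
Bcl6 STAT5, chr16:23988580-23988606: SEQ_Bcl6_STAT5
Batf3 STAT5, chr1:191124130-191124230: SEQ_Batf3_STAT5
Id2 STAT5, chr12:25189245-25189345: SEQ_Id2_STAT5
Cebpa STAT5, chr7:35051697-35051797: SEQ_Cebpa_STAT5

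The Bcl6 sequence lies just inside the gene from its 5′ start and is cut to the motif and its flanks because the annotation places an untranslated region there. The Cebpa sequence belongs to the only STAT5 peak within 100 kb of that gene, at -67.6 kb, with 9.02-fold in WT and 7.77-fold in KO.

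STAT5 and p65 met at 11 of the 24 WTLPS p65 peaks (45.8%, 27.9 to 64.9%), where a STAT5 peak was listed in WT, beside 26.99% of the whole p65 list. Of those 11, 6 had no p65 peak in KOLPS (54.5%, 28.0 to 78.7%), beside 63.1% of the peaks with STAT5 in the whole list. Of the 13 without STAT5 around these genes, 7 had none (53.85%, 29.1 to 76.8%), beside 82.5% of such peaks in the whole list. The 6 with STAT5 included the Bcl6 sites at -27.4 and -39.9 kb, where STAT5 remained listed in KO while p65 was not listed in KOLPS.

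**Figure D4:**
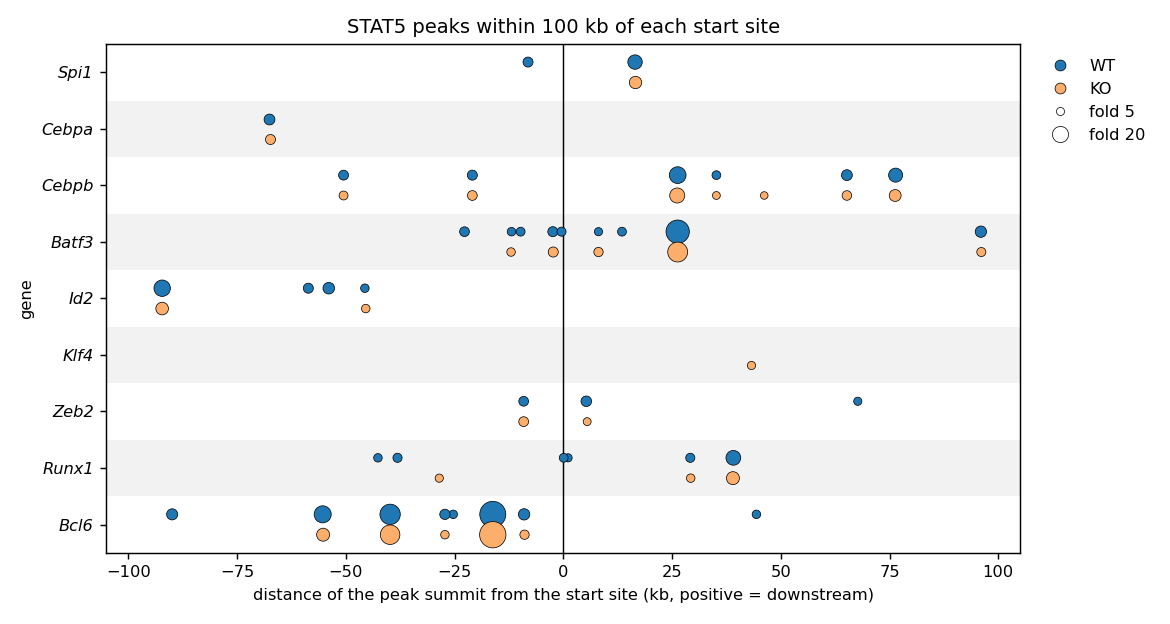
Position of each STAT5 peak summit relative to the start site of each gene (kb, positive downstream) in WT and KO, with the area of a point proportional to fold enrichment. Large points recur in both conditions at Bcl6, Batf3 and Cebpb, and points in WT alone are of 10.3-fold or less.

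In total, H3K27ac peaks around the genes were more numerous in KO while the length under them was mostly shorter. There were 334 H3K27ac peaks within 100 kb in WT and 249 in WTLPS, then 389 in KO and 358 in KOLPS. The whole lists held 83461 and 77050, then 81404 and 78202. Without LPS the count was lower in KO at Cebpa, Klf4 and Bcl6 and higher at the other genes. Peaks were narrower in the KO lists, with a median width of 369 bp in WT and 392 bp in WTLPS, then 271 bp in KO and 242 bp in KOLPS. The part of peak width in the counts was not tested. Of the WT peaks, 62.6% (57.3 to 67.6%) met a KO peak, beside 47.2% of the whole list. Of the WTLPS peaks, 55.4% (49.2 to 61.5%) met a KOLPS peak, beside 41.2%, and 75.1% (69.4 to 80.1%) met a WT peak, beside 57.3%.

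The length under H3K27ac peaks was longer in KO than in WT at 2 of 9 genes, Cebpb and Runx1, against 22.3% of genes with any, and longer in KOLPS than in WTLPS at the same 2, against 14.3%. Around Cebpb it was 59.3 kb in WT and 52.5 kb in WTLPS, then 74.7 kb in KO and 64.7 kb in KOLPS, a KO to WT ratio of 1.26. Around Runx1 it was 18.1 kb in WT and 3.85 kb in WTLPS, then 23.6 kb in KO and 12.7 kb in KOLPS, with ratios of 1.31 without and 3.31 with LPS. The ratio of the whole lists was 0.678 without LPS and 0.544 with LPS, and the median over genes 0.754 and 0.623. The Runx1 start site also had a higher enrichment in KO, at 19.6-fold, and KOLPS, at 13.0-fold, than in WT, at 8.53-fold, and WTLPS, at 7.28-fold.

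Bcl6 had the lowest KO to WT ratio, 0.398 without and 0.414 with LPS, from 39.4 kb in WT and 37.5 kb in WTLPS to 15.7 kb in KO and 15.5 kb in KOLPS. Around Cebpa it was 24.2 kb in WT and 11.1 kb in WTLPS, then 14.7 kb in KO and 5.38 kb in KOLPS. Id2 had 61.3 kb in WT and 38.8 kb in KO, and Batf3 60.6 kb in WT and 46.0 kb in KO. At Zeb2 and Spi1 the ratio was near 1 without LPS, 0.921 and 0.902. Spi1 had 34.3 kb in WT and 29.3 kb in WTLPS, then 30.9 kb in KO and 26.7 kb in KOLPS.

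With LPS the length grew at 1 of 9 genes in WT, Zeb2, from 35.1 to 47.8 kb, against 36.8% of genes with any, and at 0 of 9 in KO, against 19.4%. Klf4 had the least in every condition but WTLPS, from 7.63 kb in WT to 3.39 kb in KOLPS. The H3K27ac coverage was 1.17 in WT and 1.2 in WTLPS, then 0.75 in KO and 0.8 in KOLPS. It moved with genotype, and its part in the difference in length between KO and WT was not tested.

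**Figure D5:**
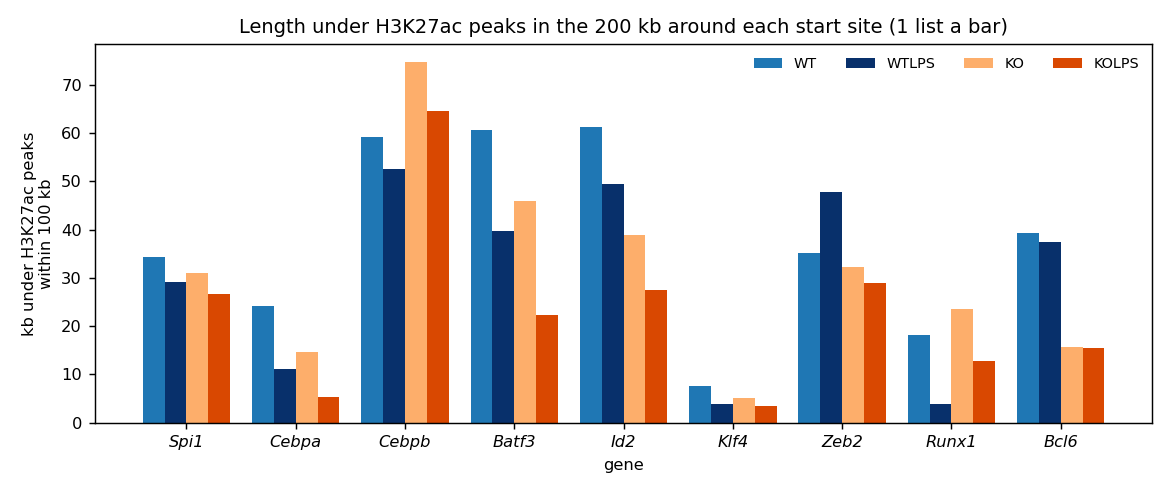
Length under H3K27ac peaks (kb) in the 200 kb around the start site of each gene, 1 bar for each condition. Cebpb and Runx1 stand higher in KO than in WT, Bcl6 falls from 39.4 to 15.7 kb, and Zeb2 rises with LPS in WT.

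Across all 30 lists, the pattern of promoter peaks was shared with many genes. Spi1 and Id2 had the same pattern as each other, with 234 other protein-coding genes alike. Cebpb had 147 such genes, Klf4 119, Cebpa 92, Zeb2 33 and Batf3 19. Runx1 had none. The 4 genes nearest to it, Slc31a2 and Klf6 among them, each differed from it in the KO H3K27me3 list alone, where the Runx1 peak was 3.29-fold.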

How the data were processed

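ChIP-seq peak lists were analysed, 30 in all. The 4 input samples had no list used here. Per the study's methods, BWA placed the trimmed reads on mm10, Picard took out duplicates, and the authors ran MACS2 on read pairs to find peaks. The submitters' processing notes name BWA 0.7.12, Picard 1.77, MACS2 2.1.2 and deepTools 3.1.3, versions other than those in the methods. The deposited lists give each peak's fold enrichment over background as a linear ratio and its −log10 p and −log10 q values, all made by the authors' peak caller. The lowest −log10 p in a list was 2.24 to 7.01 and differed between antibodies and between conditions of an antibody, most for p65 and H3K27me3. The methods describe peak calling for each sample and biological replicate, and the study states 2 of the latter. Whether a list here is 1 replicate or a pool is not given in the sources used here.

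Genes and start sites came from the GENCODE annotation of GRCm38, the same assembly as mm10, and 0 peaks lay past a chromosome end. The start site was that of the longest transcript, which for Bcl6 is a retained intron and for Batf3 a processed transcript, so the 5′ start of Bcl6 is given beside it. Peaks counted as shared with 1 bp of overlap. Background coverage was recovered from fold and −log10 p values below 25, which matched within 0.002 for at least 99.96% of peaks. The genes and lists were chosen with earlier results of these data known. Named peaks are those at promoters and, for CTCF, SMC1 and STAT5 in WT and p65 in WTLPS, the peak of highest −log10 q around each gene. The other factors named are the 4 of highest −log10 q whose p65 or STAT5 promoter call differed between genotypes. Other peaks were chosen after their values were seen. Intervals are Wilson 95% intervals. Sequences were read from the GRCm38 genome. Functions were checked on simulated data. Python 3.11.15, pandas 2.3.3, numpy 2.4.6, scipy 1.17.1, matplotlib 3.10.9 and pysam 0.24.0 were used. Alternatives were a stricter threshold, equal list lengths, larger overlaps, other windows and other start sites.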

Additional observations from a re-analysis of the deposited data

Results flagged for a closer look

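Over 72 pairs of a gene and a measure (the number of peaks within 100 kb for 7 antibodies, and the length under H3K27ac peaks), the LPS difference had opposite signs in WT and KO at 17, and the KO difference had opposite signs without and with LPS at 11. Each rests on 1 list per condition and the difference was not tested. Many are of a few peaks.

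For LPS minus unstimulated, in WT and then in KO, the length under H3K27ac peaks around Zeb2 changed by 12.64 kb and -3.341 kb. CTCF peaks around Spi1 changed by 1 and -2. SMC1 peaks changed by 3 and -6 around Cebpb, by 1 and -4 around Zeb2, and by 1 and -2 around Bcl6. H3K27ac peaks changed by -14 and 7 around Cebpb and by -15 and 2 around Bcl6. H3K27me3 peaks changed by 2 and -6 around Batf3, by 3 and -5 around Runx1, and by 3 and -2 around Bcl6. H3K4me1 peaks changed by 5 and -1 around Cebpa, by -3 and 5 around Batf3, by 1 and -1 around Id2, by -2 and 2 around Zeb2, and by -2 and 3 around Runx1. H3K4me3 peaks changed by 1 and -6 around Cebpa and by 2 and -1 around Runx1.

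For KO minus WT, unstimulated and then with LPS, H3K27ac peaks differed by -3 and 3 around Klf4 and by -4 and 13 around Bcl6. H3K27me3 peaks differed by 6 and -3 around Cebpa and by 4 and -4 around Batf3. H3K4me1 peaks differed by 3 and -3 around Cebpa, by -5 and 3 around Batf3, by 1 and -1 around Id2, and by -1 and 4 around Runx1. H3K4me3 peaks differed by 3 and -4 around Cebpa, by 1 and -2 around Runx1, and by 2 and -1 around Bcl6.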

How the results depend on the processing

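No replicate could be left out, since each condition had 1 list per antibody. No paired analysis was possible because no result comes from a test. Of 122 values under alternative settings, 89 stayed within the limits set for change and 33 did not; the causes were not tested beyond what a setting itself removes. Requiring an overlap of at least 50% of the peak lowered the kept share of CTCF to 6.977% without and 2.667% with LPS, of SMC1 to 42.93% and 18.29%, of H3K27ac to 37.72% and 30.52%, and of WTLPS H3K27ac peaks met by WT peaks to 60.64%. With lists cut to equal length the kept share was 84.62% and 73.33% for CTCF, 63.79% for SMC1 with LPS, and 75% for p65 with LPS, the latter over 4 peaks. The whole lists cut alike kept 69.7% and 63.6% for CTCF, 33.5% for SMC1 and 48.2% for p65. With a stricter threshold the CTCF share with LPS was 9.375%, and the H3K27ac shares were 77.36%, 68.83% and, for WTLPS against WT, 97.4%. Promoter counts moved as follows. CTCF in WT was at 0 genes with equal lengths and 3 within 1 kb, and CTCF in KO at 0 with a stricter threshold, 0 with equal lengths and 4 over the start sites of all transcripts. Over all start sites, p65 in WTLPS was at 1 gene, Zeb2, and STAT5 at 4 in WT and 3 in KO. STAT5 was at 1 gene in WT with a stricter threshold and at 0 in KO within 1 kb. The 24 p65 peaks in WTLPS became 14 with a stricter threshold, 4 with equal lengths, 14 within 50 kb and 48 within 200 kb. The 14 in KOLPS became 4 with equal lengths, 9 within 50 kb, 25 within 200 kb and 9 when assigned to the nearest start site only. Measuring from the start of the longest coding transcript, a setting chosen after seeing the data, moved 0 of 20 values past those limits but changed which genes were counted. H3K4me3 went from 8 to 9 genes with Bcl6, CTCF in WT had Bcl6 in place of Batf3, STAT5 in KO had Bcl6 in place of Batf3, and Bcl6 joined CTCF in KO and STAT5 in WT. Weak peaks near the threshold limit what a missing peak shows: p65 peaks rest on as few as 8 fragments.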
